A study of Mus musculus with 6 samples.

Results

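Txnip, the alpha-arrestins Arrdc3 and Arrdc4, thioredoxin (Txn1) and the glucose-sensing transcription factors Mlxip, Mlxipl and Mlx were examined in mouse hypothalamus lacking SRC-1. They are 7 of the 50559 genes in the deposited table and were taken by symbol, and all 7 had enough counts to be tested. Txnip was selected on its counts in these libraries, where it was lower in SRC-1 knockout, and the other 6 genes were added for their known link to it, with their values already computed. The differences between genotypes given for the 7 genes are therefore a description, with no test. The libraries were 3 from mice labelled SRC1 KO and 3 from mice labelled Wild-type, all of total RNA from hypothalamus. SRC-1 is a steroid receptor coactivator encoded by Ncoa1. The labels give no age, sex, strain, allele or treatment for either group, and do not say whether SRC-1 was deleted in all cells or whether the replicates are separate animals. The p-values therefore cover only the variation among these libraries, part or all of which may be technical.

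TXNIP is an arrestin-fold protein that binds reduced thioredoxin and holds it inactive, and it also removes glucose transporters from the cell surface. Its gene is a classical target of MondoA (Mlxip) and ChREBP (Mlxipl), which are activated by phosphorylated glucose and bind DNA only as dimers with Mlx, at paired E-box-like sites called carbohydrate response elements. Arrdc4, the closest relative of Txnip, is another target of these factors, while Arrdc3 brings ubiquitin ligases of the NEDD4 family to membrane receptors. In the mouse hypothalamus TXNIP is known as a nutrient-responsive protein that takes part in the control of energy balance.

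The libraries held between 36613507 and 46755553 counts of read pairs, of which the 7 genes took between 7733 and 8854. Ncoa1 averaged 38.8 ± 1.54 CPM in SRC-1 knockout and 126 ± 3.94 CPM in wild type (SD, n = 3 each), where CPM are counts per fixed library size, with sizes adjusted by the TMM method. Every library matched its label. All 15 hypothalamic markers examined were detected, with summed levels of 833 to 1060 CPM in SRC-1 knockout and 890 to 1147 CPM in wild type. The abundant peptides dominate these sums, and the median log2 fold change of the 15 genes was -0.59. The log2 fold change was positive for Hcrt (0.47), Pmch (0.47), Sim1 (0.33), Crh (0.28) and Trh (0.10). It was negative for the others, most of all for Pomc (-2.26) and Agrp (-2.00). Pomc, the melanocortin precursor of the arcuate nucleus, had 271, 209 and 1376 counts in SRC-1 knockout and 3143, 1893 and 3111 in wild type, and Agrp, its antagonist, had 64, 50 and 121 in SRC-1 knockout and 152, 202 and 531 in wild type (edgeR adjusted p 0.375 and 0.240). Growth hormone, a pituitary transcript, had 280, 7 and 1 counts in SRC-1 knockout replicates 1 to 3 and 477, 0 and 0 counts in wild-type replicates 1 to 3, so the first replicate of each group stood apart.

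Txnip (chromosome 3, 96465273 to 96469173, plus strand, GRCm39) was the member that differed. It had 639, 682 and 867 counts in SRC-1 knockout replicates 1 to 3, against 1300, 1397 and 1601 counts in wild-type replicates 1 to 3. On the CPM scale these were 15.2, 17.2 and 19.0 in SRC-1 knockout and 31.9, 36.9 and 38.5 in wild type. The highest knockout library lay well under the lowest wild-type library. Txnip averaged 17.1 ± 1.89 CPM in SRC-1 knockout and 35.8 ± 3.47 CPM in wild type (SD, n = 3 each), a log2 fold change of -1.06 ± 0.10 (SE) or 0.479-fold. It fell in edgeR's quasi-likelihood fit over 20257 genes. It was thus 1 of 7 members lower, with 0 higher, at an adjusted p under 0.05, where 0.834% of all tested genes passed, 0.592% as lower and 0.242% as higher. Since this contrast chose the gene, nothing is read from that count. The groups of 1 of the 7 members did not overlap, against 17.6% of all tested genes, 9.03% lower and 8.58% higher. Of all 20257 tested genes, 488 had a more negative log2 fold change than Txnip, and 34 of the 10704 with a mean of at least 10 CPM. These ranks restate the values by which Txnip was chosen.

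**Figure D1:**
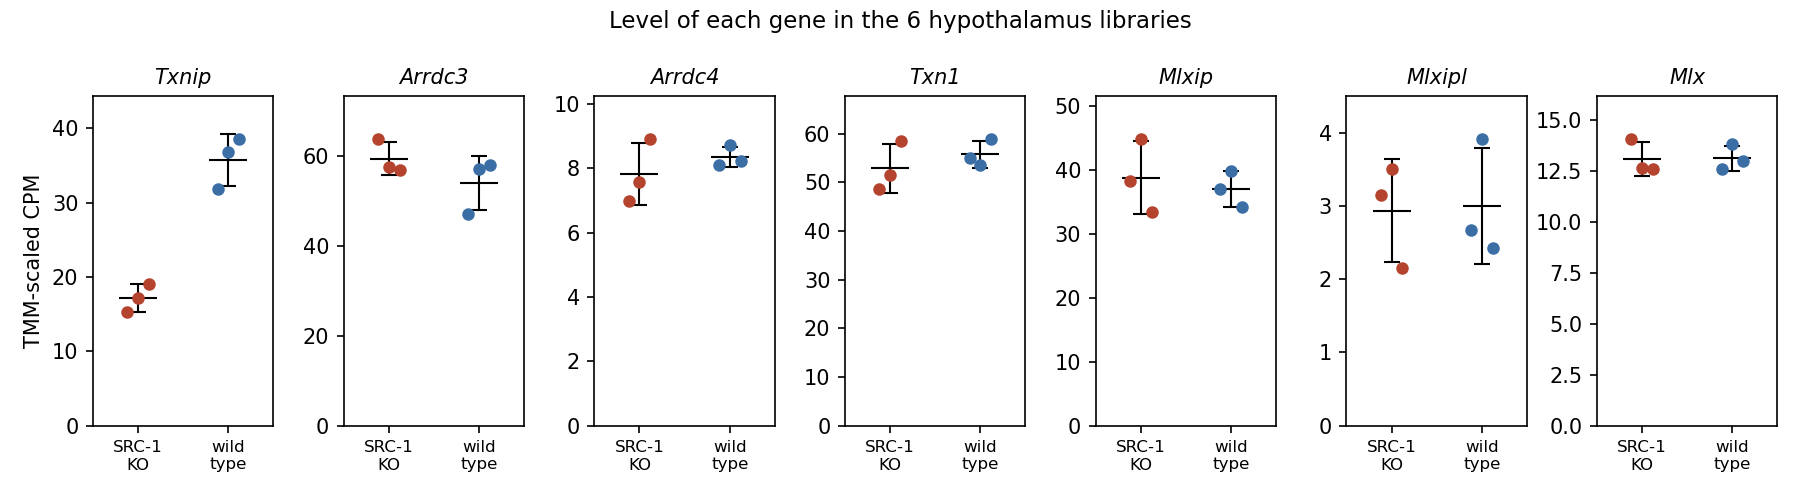
TMM-scaled CPM of each of the 7 genes (vertical axes, each from 0) in the 3 SRC-1 knockout libraries (left, red) and the 3 wild-type libraries (right, blue), with the mean and SD in black. Txnip lies between 15.2 and 19.0 CPM in SRC-1 knockout and between 31.9 and 38.5 CPM in wild type, and the groups of the other 6 genes overlap.

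With each library left out in turn the log2 fold change of Txnip ran from -1.14 to -0.98, and over all 15 alternative fits it lay within that range. Part of the gene is shared with another transcript: 21.6% of the exon bases of Txnip lie under exons of Gm15441, on the opposite strand. Read pairs lying wholly there were not assigned to either gene. Gm15441 itself had between 1 and 3 counts in SRC-1 knockout and between 3 and 5 in wild type. The 9 tested genes within 100000 bases of Txnip had log2 fold changes between -0.26 and 0.34. The nearest, Polr3gl, a subunit of RNA polymerase III, averaged 37.7 CPM in SRC-1 knockout and 36.9 CPM in wild type.

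The promoters of Txnip, Arrdc4 and Mlx are shown as examples that hold a paired E-box-like site or the single E-box CACGTG. Each is the 250 bases before the RefSeq start, placed on GRCm39 by exact match and written 5′ to 3′ on the strand of the gene. Capitals mark CCAAT, on either strand, in all 3. They also mark a paired E-box-like site and the letters TGTTTAC, on the reverse strand, in Txnip, and the E-box CACGTG in Arrdc4 and Mlx. The positions are chr3:96465023-96465272 on the plus strand for Txnip, chr7:68398987-68399236 on the minus strand for Arrdc4 and chr11:100977866-100978115 on the plus strand for Mlx. The RefSeq start of Mlx lies 578 bases inside the gene as counted, so its window is not upstream of the counted gene.
Txnip: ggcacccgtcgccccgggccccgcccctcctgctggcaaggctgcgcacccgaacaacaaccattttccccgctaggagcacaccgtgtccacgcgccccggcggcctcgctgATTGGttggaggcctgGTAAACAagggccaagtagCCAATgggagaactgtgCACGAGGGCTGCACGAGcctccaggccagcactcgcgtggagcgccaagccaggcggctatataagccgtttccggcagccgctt
Arrdc4: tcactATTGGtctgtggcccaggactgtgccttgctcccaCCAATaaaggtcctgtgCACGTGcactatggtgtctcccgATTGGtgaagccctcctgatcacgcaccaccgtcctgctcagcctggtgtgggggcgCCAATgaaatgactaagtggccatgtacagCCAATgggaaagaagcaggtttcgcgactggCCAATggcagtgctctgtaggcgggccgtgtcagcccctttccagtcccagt
Mlx: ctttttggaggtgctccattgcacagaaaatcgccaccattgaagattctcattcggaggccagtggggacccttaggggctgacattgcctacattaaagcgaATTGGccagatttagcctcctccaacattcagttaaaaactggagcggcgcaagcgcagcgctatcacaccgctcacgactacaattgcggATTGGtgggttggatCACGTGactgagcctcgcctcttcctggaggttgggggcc

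The paired site of Txnip, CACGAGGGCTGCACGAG, lies at -85 to -69 from the start, and such a match, CACGNG and then after any 5 bases CACGNG again, was present on either strand in 0.0457% of the 32851 RefSeq promoter windows. No other member held it. Besides Txnip, 9 tested genes held this match, and their log2 fold changes ran from -0.10 for Fem1b to 0.41 for Tdrd9 with a median of -0.02. These genes were looked up after the value of Txnip was seen. The looser pair with CANNNG in both places, which every match of the stricter one also meets, was found for Txnip, Mlxipl and Mlx and in 11.6% of windows. CACGTG was found for Arrdc4, Mlxipl and Mlx and in 6.02% of windows. Arrdc4 held CACGTG without either pair, and Mlxipl, not shown above, held CACGTG and the looser pair. CCAAT, the site of the factor NF-Y, was found for 6 of the 7 genes, all but Txn1, or in 7 of their 10 windows, and in 33.8% of all windows, and the Arrdc4 window held 6 matches. TGTTTAC, the site of forkhead factors, was found for Txnip and in 3.17% of windows, and the full palindromic glucocorticoid receptor site for none of the 7 and in 0.00913%. A match is a description of these letters and not of binding.

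Arrdc4 (chromosome 7, 68386742 to 68398986) shares the glucose-responsive regulation of Txnip in other tissues. It had 6.98, 7.59 and 8.90 CPM in SRC-1 knockout and 8.11, 8.71 and 8.23 CPM in wild type. The groups overlapped, since knockout replicate 3 was the highest of all 6 libraries. Its log2 fold change was -0.09 ± 0.12 (SE). The ratio of Txnip to Arrdc4 within each library, on the TPM scale (transcript abundance, from counts divided by exon length), was 3.08, 3.20 and 3.02 in SRC-1 knockout and 5.55, 5.98 and 6.61 in wild type. Since Arrdc4 differed little, this ratio restates the counts by which Txnip was chosen.

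Arrdc3 (chromosome 13, 81031503 to 81044161), an adaptor that directs the beta-adrenergic receptors to degradation, was the highest of the 3 alpha-arrestins in CPM. It had 63.7, 57.7 and 57.0 CPM in SRC-1 knockout and 47.0, 57.1 and 57.9 CPM in wild type. The groups overlapped, and wild-type replicate 1 was the low library. The log2 fold change was 0.14 ± 0.09 (SE), and -0.01 without the first replicate of both groups. The ratio of Txnip to Arrdc3 in TPM was 0.565 ± 0.0928 in SRC-1 knockout and 1.29 ± 0.0310 in wild type (SD, n = 3 each). Txnip was thus below Arrdc3 in each knockout library and above it in each wild-type library. Since Arrdc3 differed little, this too restates the counts by which Txnip was chosen. The ratio of Arrdc4 to Arrdc3 was 0.182 ± 0.0321 in SRC-1 knockout and 0.215 ± 0.0213 in wild type, and these groups overlapped.

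**Figure D2:**
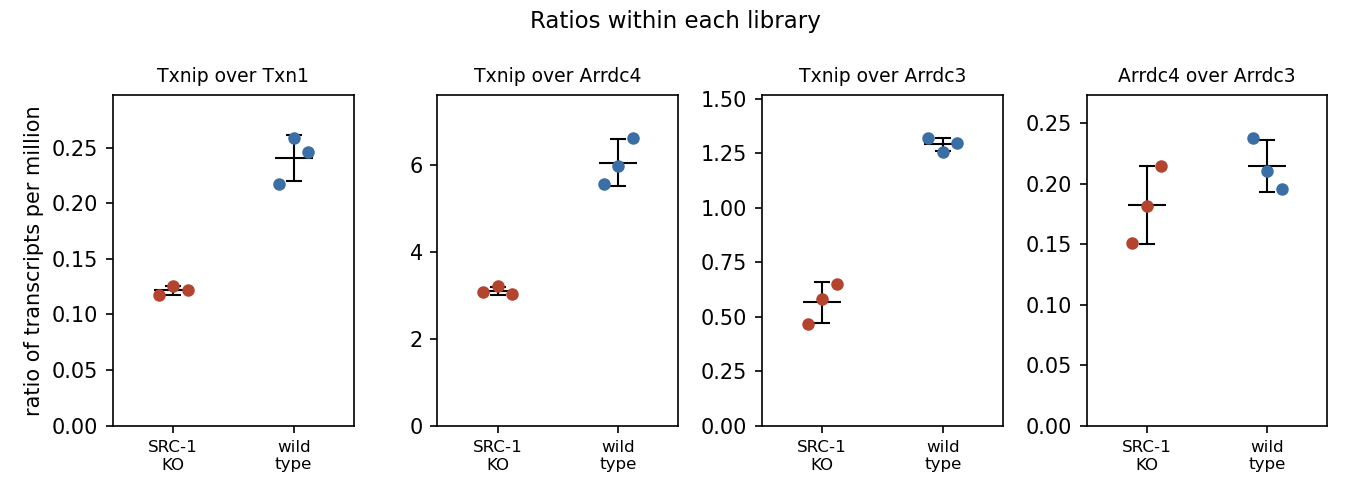
Ratio of TPM of gene pairs within each library (vertical axes, each from 0) for 3 SRC-1 knockout libraries (left, red) and 3 wild-type libraries (right, blue), with the mean and SD in black. The ratios with Txnip on top are lower in every knockout library than in any wild-type library, which restates the counts by which Txnip was chosen. The ratio of Arrdc4 to Arrdc3 overlaps between the groups.

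Txn1 (chromosome 4, 57943373 to 57956411), the cytosolic thioredoxin that TXNIP binds, had 48.6, 51.6 and 58.5 CPM in SRC-1 knockout and 55.0, 53.6 and 58.8 CPM in wild type. The groups overlapped, with knockout replicate 3 inside the wild-type range. Its log2 fold change was -0.08 ± 0.08 (SE). Txn1 shares 309 bases at 95.8% identity with the pseudogene Txn-ps1, so its level is uncertain to the extent that read pairs mapped to both. The ratio of Txnip to Txn1 in TPM was 0.118, 0.125 and 0.122 in SRC-1 knockout and 0.217, 0.258 and 0.246 in wild type. Txn1 differed little, so this ratio also restates the counts by which Txnip was chosen.

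The factors that drive Txnip came next. Mlxip, encoding MondoA (chromosome 5, 123532438 to 123595998), had 38.2, 44.7 and 33.3 CPM in SRC-1 knockout and 37.0, 39.8 and 34.1 CPM in wild type, with a log2 fold change of 0.07 ± 0.11 (SE). The knockout libraries spanned the whole wild-type range. Mlxipl, encoding ChREBP (chromosome 5, 135118744 to 135168622), had 3.15, 3.50 and 2.15 CPM in SRC-1 knockout and 2.67, 3.91 and 2.43 CPM in wild type, with a log2 fold change of -0.04 ± 0.24 (SE). It was the least counted member, with 98 to 139 counts in SRC-1 knockout and 101 to 148 in wild type. Its mean count gives a counting error of 9.08%, and its coefficient of variation was 24.0% in SRC-1 knockout and 26.4% in wild type, so a difference of the size seen for Arrdc3 could not be told from the spread. Mlx, the shared partner (chromosome 11, 100977538 to 100983033), had 14.1, 12.7 and 12.6 CPM in SRC-1 knockout and 12.6, 13.8 and 13.0 CPM in wild type, with a log2 fold change of 0.00 ± 0.09 (SE). The groups overlapped almost fully. The sign of Mlxip, Mlxipl, Mlx and Arrdc3 changed in at least 1 of the alternative fits, while Arrdc4 and Txn1 stayed negative and short of the threshold in all 15.

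Over the 7 genes the median log2 fold change was -0.04, against 0.00 over all tested genes. Apart from Txnip the members ran from -0.09 to 0.14. Mlxip and Mlxipl varied together over the 6 libraries, with a Pearson r of 0.86 in log2 CPM, and both were highest in replicate 2 of each genotype. The r with Txnip was -0.28 for Mlxip, -0.02 for Mlxipl, -0.03 for Mlx and -0.48 for Arrdc3. Its r was 0.58 for Arrdc4 and 0.56 for Txn1, and 82.1% and 81.3% of the 13925 genes compared had a lower r than these. With the genotype means removed, r with Txnip was 0.78 for Arrdc4 and 0.78 for Txn1. These are descriptions of 6 libraries that share their depth scaling.

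Levels per exon length ordered the genes alike in the genotypes except for Txnip and Arrdc3, which exchanged ranks 2 and 3. That exchange restates the counts by which Txnip was chosen. In SRC-1 knockout the order in TPM was Txn1 (156.7 ± 11.1, SD, n = 3), Arrdc3 (34.0 ± 2.67), Txnip (19.0 ± 1.72), Mlx (16.0 ± 1.25), Mlxip (14.2 ± 2.46), Arrdc4 (6.15 ± 0.612) and Mlxipl (1.64 ± 0.433). In wild type it was Txn1 (168.5 ± 2.90), Txnip (40.5 ± 3.60), Arrdc3 (31.5 ± 3.44), Mlx (16.4 ± 1.12), Mlxip (13.8 ± 1.48), Arrdc4 (6.71 ± 0.424) and Mlxipl (1.72 ± 0.501). Among neighbours in these orders the library ranges overlapped in SRC-1 knockout for Txnip with Mlx and for Mlx with Mlxip, and in wild type for none. The wild-type gap between Txnip and Arrdc3 was narrow, with a lowest Txnip of 36.4 TPM and a highest Arrdc3 of 34.2 TPM. Txnip stood above 62.2% of tested genes in SRC-1 knockout and above 77.4% in wild type. Mlx shares 43.0% of its exon bases with Psmc3ip on the opposite strand. Its length thus includes bases for which read pairs lying wholly in them were not taken. Over unshared exon bases, a scale added after the data were seen, Mlx averaged 28.1 ± 2.20 in SRC-1 knockout and 28.7 ± 1.97 in wild type, and Txnip 24.3 ± 2.19 in SRC-1 knockout and 51.7 ± 4.60 in wild type (SD, n = 3 each). On that scale Mlx ranked above Txnip in SRC-1 knockout and below it in wild type, where Mlx overlapped Arrdc3. The knockout gap was narrow, with a lowest Mlx of 26.15 and a highest Txnip of 26.12. The scale overstates both genes to the extent that counted read pairs reached partly into shared bases.

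**Figure D3:**
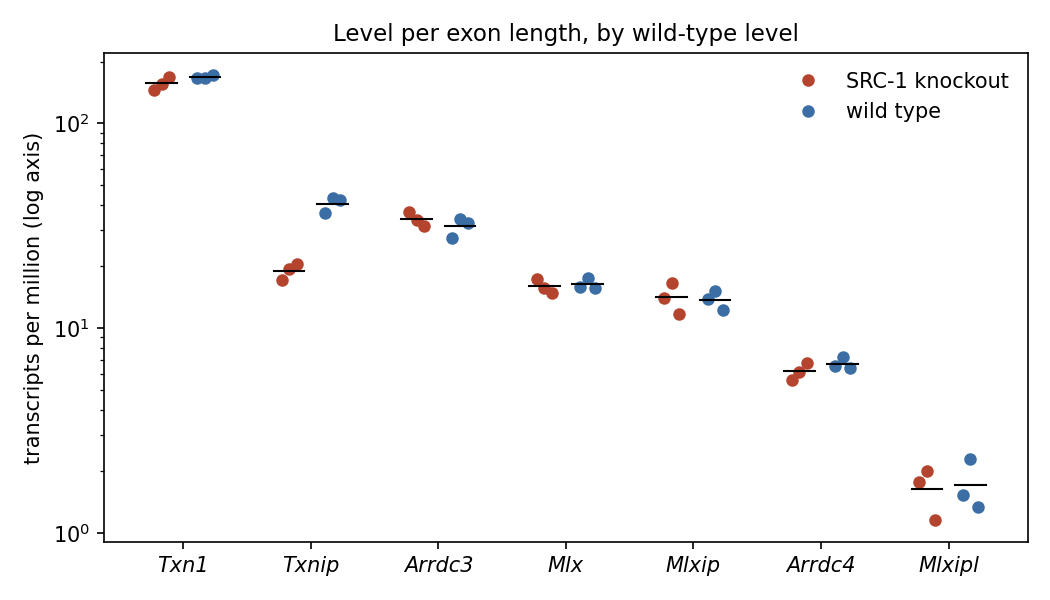
TPM on a log axis for the 7 genes, ordered by their wild-type mean, in SRC-1 knockout (left of each pair, red) and wild type (right of each pair, blue), each point a library and each bar a mean. Txnip lies below Arrdc3 in SRC-1 knockout (19.0 TPM) and above it in wild type (40.5 TPM), which restates the counts by which Txnip was chosen. Txn1 lies far above the rest in both.

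Gene lists around these members were examined in the same fit, with adjusted p over all 20257 genes. Of 10 lists, 9 had 0 members past the threshold in edgeR. For these, 4 numbers in brackets give how many members had an unadjusted p under 0.05 in edgeR, and how many passed the adjusted threshold in DESeq2, in plain limma-voom and in limma-voom weighted by library quality. Over all genes these shares were 13%, 4.49%, 0.508% and 1.98%. The lists were chosen with earlier results of these data known.

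The other arrestins held 9 tested genes with a median log2 fold change of 0.03 (0, 0, 0 and 0). The beta-arrestins Arrb1 (0.11 ± 0.07, SE, adjusted p 0.596) and Arrb2 (0.11 ± 0.07, adjusted p 0.608) and the retromer subunit Vps26a (0.08 ± 0.07, adjusted p 0.718) did not pass in edgeR. Arrdc2, a further alpha-arrestin picked after its values were seen, had 459, 444 and 522 counts in SRC-1 knockout and 347, 489 and 1097 in wild type. Wild-type replicate 3 alone was high, and the groups overlapped (-0.51 ± 0.45, edgeR adjusted p 0.748). The thioredoxin and glutaredoxin list had a median of -0.02 over 13 genes (1, 1, 0 and 1). Nxn, nucleoredoxin, led it with 19.8 ± 3.05 CPM in SRC-1 knockout and 27.8 ± 0.537 CPM in wild type (-0.49 ± 0.10, edgeR adjusted p 0.0590), while Txndc17 (-0.12 ± 0.09) and Glrx3 (0.08 ± 0.07) had adjusted p of 0.698 and 0.716 in edgeR.

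Partners of Mlx and Max had a median of -0.19 over 10 genes, 9 of them negative (2, 0, 0 and 0), where 48.9% of all tested genes were negative. Myc, a growth-promoting partner of Max, averaged 3.85 ± 0.171 CPM in SRC-1 knockout and 4.80 ± 0.0926 CPM in wild type (-0.32 ± 0.13, edgeR adjusted p 0.332). The repressor Mxd4 (-0.21 ± 0.09, edgeR adjusted p 0.371) and Mycl (-0.30 ± 0.15, edgeR adjusted p 0.446) did not pass. Other targets of ChREBP and MondoA had a median of -0.05 over 22 tested genes, 16 of them negative (4, 0, 0 and 0). Hexokinase 2, Hk2, had 5.35 ± 0.318 CPM in SRC-1 knockout and 7.32 ± 1.07 CPM in wild type (-0.45 ± 0.14, edgeR adjusted p 0.183). The fatty acid elongase Elovl6 (0.24 ± 0.08, edgeR adjusted p 0.227) and the lipase Pnpla3 (0.40 ± 0.15, edgeR adjusted p 0.287) were on the positive side.

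Glucose transport and its first steps had a median of 0.03 over 18 genes (3, 2, 0 and 1). Slc2a1, the transporter GLUT1, averaged 85.9 ± 1.19 CPM in SRC-1 knockout and 104 ± 12.1 CPM in wild type (-0.28 ± 0.08, edgeR adjusted p 0.161). Hkdc1, a hexokinase-like gene, had 19, 40 and 21 counts in SRC-1 knockout and 84, 73 and 59 in wild type (-1.50 ± 0.33, edgeR adjusted p 0.0660). Genes of hypothalamic glucose sensing had a median of 0.03 over 14 genes (2, 1, 0 and 0). The GLP-1 receptor Glp1r (-0.54 ± 0.17, edgeR adjusted p 0.181), the uncoupling protein Ucp2 (-0.50 ± 0.14, edgeR adjusted p 0.185) and the potassium channel subunit Kcnj11 (0.16 ± 0.08, edgeR adjusted p 0.435) did not pass.

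NEDD4-family ligases, which the alpha-arrestins recruit, had a median of 0.08 over 9 genes (2, 1, 0 and 0). Hecw1 averaged 64.0 ± 2.55 CPM in SRC-1 knockout and 54.4 ± 1.07 CPM in wild type (0.23 ± 0.06, edgeR adjusted p 0.129). Itch, the ligase that targets TXNIP itself, had 0.16 ± 0.07 (edgeR adjusted p 0.349) and Hecw2 0.17 ± 0.08 (edgeR adjusted p 0.419). Receptors and carriers bound by alpha-arrestins had a median of 0.02 over 9 genes (0, 0, 0 and 0), with Itgb4 at 0.52 ± 0.22, Avpr2 at 0.97 ± 0.45 and Tfrc at 0.16 ± 0.09 (edgeR adjusted p 0.400, 0.404 and 0.533). TXNIP partners and inflammasome genes had a median of 0.02 over 12 genes (3, 0, 0 and 0). The inflammasome sensor Nlrp3 had 41, 34 and 44 counts in SRC-1 knockout and 28, 25 and 23 in wild type (0.56 ± 0.24, edgeR adjusted p 0.356). The cytokine Il18 (0.26 ± 0.09, edgeR adjusted p 0.223) and the kinase Map3k5, which thioredoxin restrains (-0.37 ± 0.13, edgeR adjusted p 0.288), did not pass.

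In the list of fasting and glucocorticoid responsive genes 1 of 20 fell and 0 rose, where 0.592% of all tested genes fell and 0.242% rose. All 20 log2 fold changes were negative and the median was -0.38, where 48.9% of all tested genes were negative with a median of 0.00. The groups of 5 of the 20 did not overlap, against 17.6% of all tested genes. Wild-type replicate 3 was high for several members, and without it 18 were negative and the median was -0.21. Sgk1, a kinase induced by glucocorticoids, had 1253, 1378 and 2234 counts in SRC-1 knockout and 1276, 2772 and 5310 in wild type, where replicate 1 lay in the knockout range. Foxo1, a forkhead factor that insulin switches off, averaged 21.7 ± 2.79 CPM in SRC-1 knockout and 30.5 ± 1.37 CPM in wild type (-0.49 ± 0.09, edgeR adjusted p 0.0481). Foxo1 passed in 1 of the 6 fits with a library left out, that without knockout replicate 3 (adjusted p 0.0176), and had up to 0.208 in the others. Over all 15 alternative fits it passed in 6. Per1 (-0.31 ± 0.10, edgeR adjusted p 0.192), Sult1a1 (-0.55 ± 0.17, edgeR adjusted p 0.205) and the chaperone Fkbp5 (-0.75 ± 0.21, edgeR adjusted p 0.214) did not pass. Among the 15 alternative fits Fkbp5 passed in 2, including DESeq2 (adjusted p 0.00047), and Per1 and Sult1a1 in 1 each. Fkbp5 had 1100, 1011 and 1426 counts in SRC-1 knockout and 1486, 1571 and 2572 counts in wild type, with replicate 3 the highest of each group.

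**Figure D4:**
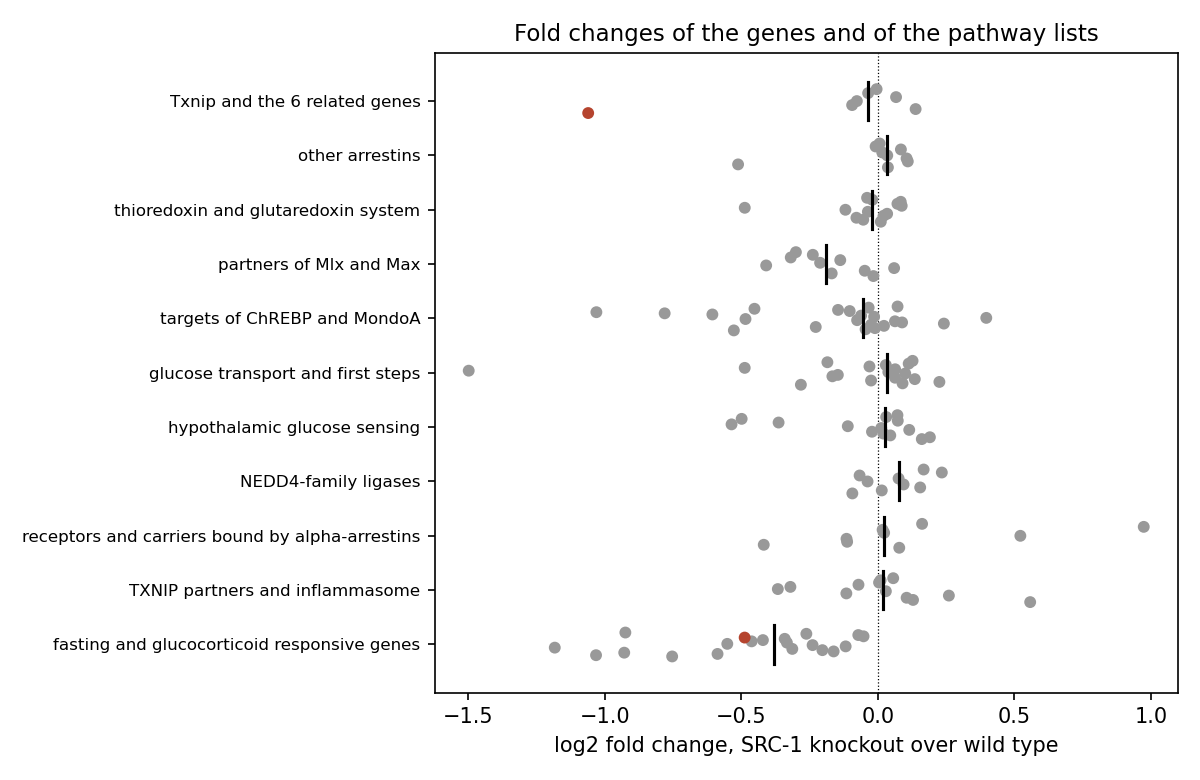
Log2 fold changes of SRC-1 knockout over wild type for Txnip and the 6 related genes (top row) and for the tested genes of 10 lists, with 1 point a gene and the row median as a black bar. Red points passed an adjusted p under 0.05 as lower in edgeR and grey points did not pass. Txnip (-1.06) and Foxo1 (-0.49) are the red points.

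The tested genes with at least 1 CPM whose log2 CPM followed Txnip most closely over the 6 libraries were Sdcbp2, Nme5, Atp7b, Fzd5, Corin, Tshr, Cog3, Cyba, Bbox1 and Lrrc9, with Pearson r from 1.00 to 0.99 among the 13925 genes compared. Likeness includes the difference between genotypes, which favours genes whose groups do not overlap. In all 10 the groups did not overlap, against 2586 of the 13925 genes compared. Nme5, a protein of the ciliary axoneme, averaged 7.05 ± 0.676 CPM in SRC-1 knockout and 10.4 ± 0.541 CPM in wild type. Fzd5, a Wnt receptor, averaged 9.91 ± 1.35 CPM in SRC-1 knockout and 21.6 ± 3.59 CPM in wild type. Tshr, the thyrotropin receptor, averaged 1.52 ± 0.289 CPM in SRC-1 knockout and 3.98 ± 0.719 CPM in wild type. Corin, which activates natriuretic peptides, averaged 0.871 ± 0.194 CPM in SRC-1 knockout and 2.66 ± 0.393 CPM in wild type. The copper pump Atp7b and the Golgi tether Cog3 had smaller log2 fold changes of -0.32 and -0.10. Their order over the 6 libraries matched that of Txnip, as it did for 58 of the 13925 genes compared. At the other end were Abhd5, Mir9-3hg, Plekho1, Dpy19l1 and Snx15, with r from -0.99 to -0.98. Abhd5, the co-activator of triglyceride lipase, averaged 20.7 ± 0.348 CPM in SRC-1 knockout and 16.7 ± 0.749 CPM in wild type.

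The summed markers of several cell types did not overlap between the genotypes, some by a narrow gap. In bulk tissue fewer cells of a type and less RNA per cell cannot be told apart. The summed level of 11 ependymal and tanycyte markers was 79.6 to 104.6 CPM in SRC-1 knockout and 219.2 to 224.3 CPM in wild type, with 6 of 11 lower, 0 higher and none at 0. Over all tested genes 0.592% were lower and 0.242% higher at an adjusted p under 0.05 in edgeR. That of 8 choroid plexus markers was 27.3 to 35.6 CPM in SRC-1 knockout and 47.9 to 48.5 CPM in wild type, with 0 lower and 0 higher. Its largest part was Clic6, whose groups overlapped, at 15.5 to 22.7 CPM in SRC-1 knockout and 20.7 to 30.9 CPM in wild type. Otx2 (log2 fold change 0.62) and Kcne2 (0.26) were positive and the other tested choroid plexus markers negative. Ttr, the defining transcript of that tissue, had 11 to 241 counts in SRC-1 knockout and 29 to 382 in wild type. Oligodendrocyte markers summed to 6581 to 8798 CPM in SRC-1 knockout and 4046 to 5174 CPM in wild type, with 6 of 9 higher. Astrocyte markers ran from 2928 to 3218 CPM in SRC-1 knockout and from 3240 to 3281 CPM in wild type. That gap was narrow, and 0 of 8 were lower or higher. Aqp4, Aldh1l1 and S100b had positive log2 fold changes (0.23, 0.31 and 0.20) and the other astrocyte markers negative ones. Meningeal fibroblast markers ran from 58.5 to 62.2 CPM in SRC-1 knockout and from 62.9 to 264.7 CPM in wild type, again a narrow gap, with 1 of 8 lower. Endothelial and pericyte markers overlapped between the groups, at 319.0 to 349.2 CPM in SRC-1 knockout and 250.9 to 319.6 CPM in wild type. The sums for neurons, microglia and blood overlapped as well. The pituitary sum overlapped only narrowly, at 306.9 to 336.11 CPM in SRC-1 knockout and 336.05 to 376.8 CPM in wild type. It was mostly Chga, which neurons also express. Cga, the shared subunit of pituitary glycoprotein hormones, had 15, 1 and 3 counts in SRC-1 knockout and 184, 225 and 502 in wild type (edgeR adjusted p 0.0560). Pitx1, a pituitary transcription factor, fell, with 3, 3 and 4 counts in SRC-1 knockout and 37, 36 and 54 in wild type (edgeR adjusted p 0.00392). The part of these cell types in the Txnip difference was not tested.

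**Figure D5:**
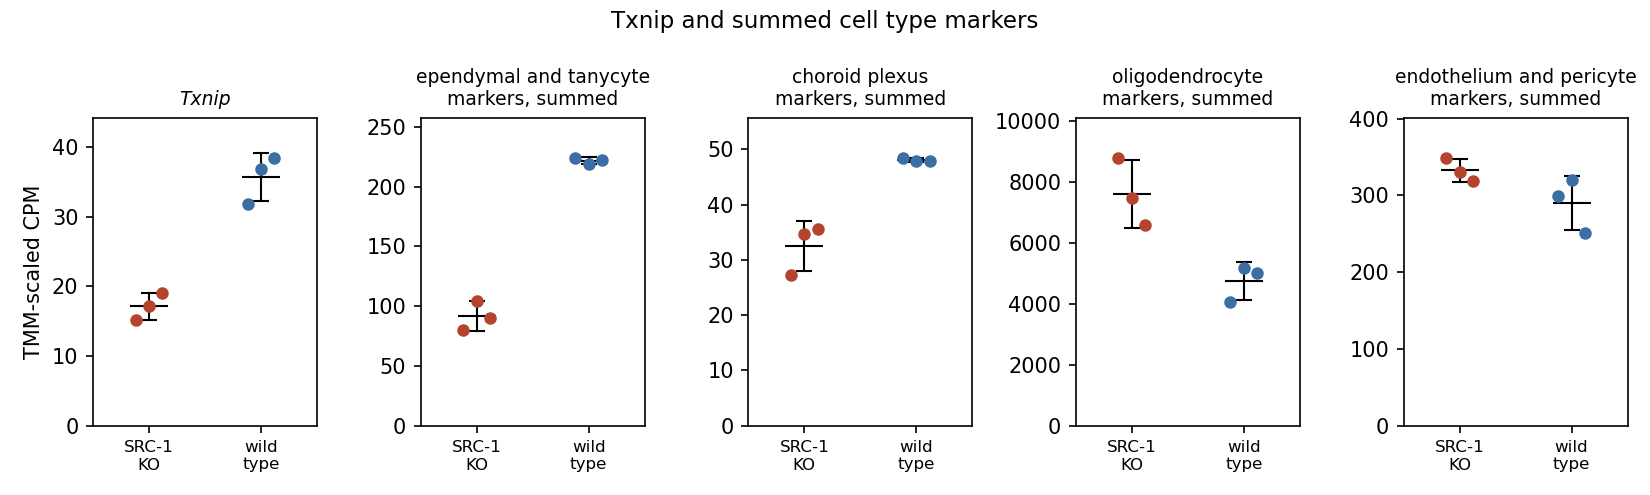
TMM-scaled CPM of Txnip and of the summed markers of 4 cell types (vertical axes, each from 0) in SRC-1 knockout (left, red) and wild type (right, blue), with the mean and SD in black. Txnip, the ependymal and tanycyte sum and the choroid plexus sum are lower in every knockout library than in any wild-type library, the oligodendrocyte sum is higher, and the endothelial sum overlaps.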

How the data were processed

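The authors deposited raw counts of read pairs per gene for 6 libraries. STAR 2.7.10a made the alignments, as the submitters' processing notes list it, and read pairs were counted with featureCounts over RefSeq exons of mm39 (GRCm39), per the file headers, which give version 2.0.0 where the notes give 2.0.3. The header sets no strand, multi-mapping or overlap option, so read pairs lying wholly in exons of several genes were not counted. Columns were matched to samples by library codes.

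Computed here were TMM scaling, edgeR 4.0.16 quasi-likelihood tests (R 4.3.3) with a minimum count of 10 in the expression filter, Benjamini-Hochberg adjustment over all genes, and TPM from the deposited exon lengths. Standard errors are the log2 fold change over the square root of F. Totals ran from 36613507 to 46755553 counts, and the common biological coefficient of variation was 12.3%. Pairs of libraries of 1 genotype differed beyond sampling noise (chi-square per degree of freedom 8.01 to 16.9), so all were kept. Pairs across the genotypes ran from 13.5 to 32.9, which overlapped that range. Alternatives used DESeq2 1.42.0, limma 3.58.1, other scalings and filters, a replicate block and libraries left out.

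Members and lists were chosen with earlier results of these data known. Named were all members, from each list the genes past the threshold and up to 3 more with the lowest p (1 such gene is not reported here), and the 10 genes most and 5 least like Txnip (Pearson r of log2 CPM, prior count 2), leaving out clones, predicted genes and pseudogenes. Arrdc2, Gm15441, Polr3gl, Fem1b, Tdrd9, growth hormone, Pomc, Agrp, Sgk1, Cga, Pitx1 and Ttr were picked after their values were seen. So were Hcrt, Pmch, Sim1, Crh, Trh, Clic6, Otx2, Kcne2, Aqp4, Aldh1l1 and S100b. G6pc1 had no row under that symbol, and Fgf21, Arrdc5, Slc5a1, Tas1r2 and Il1b had too few counts. Promoters are from RefSeq (GRCm38.p6 table, all 7 genes matched) placed on the GRCm39 genome, and the RefSeq protein sequences were not used here.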

Additional observations from a re-analysis of the deposited data

How the results depend on the processing

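Of 105 values of the members' log2 fold changes under alternatives, 103 moved by less than the spread between replicates. The exceptions were Arrdc3 (-0.011) and Mlx (-0.094) without the first replicate of both groups, a fit added after the data were seen. The count of genes higher and lower in SRC-1 knockout was 49 and 120. It was 15 and 51 with library totals alone, 350 and 616 with no filter, 21 and 63 with at least 1 CPM in at least 3 libraries, 306 and 515 with DESeq2, 22 and 81 with limma-voom, 135 and 266 with sample quality weights and 6 and 23 without both first replicates. Leaving out each library in turn gave between 13 and 123 higher genes and between 23 and 224 lower genes. The cause of these shifts was not tested. The number of called genes in the fasting and glucocorticoid list was 1, against 0 with library totals alone, the 1 CPM filter or limma-voom, 3 with no filter, 2 with DESeq2, 3 with the replicate block, and 0 to 1 with 1 library left out. Lists with 0 calls had 1 in the thioredoxin list, 1 among ChREBP targets and 2 in glucose transport with no filter. With DESeq2 they had 1 in the thioredoxin list, 2 in glucose transport, 1 in glucose sensing and 1 among NEDD4 ligases. Sample quality weights gave 1 in the thioredoxin list and 1 in glucose transport, and the replicate block 1 in glucose sensing. With 1 library left out, the thioredoxin, glucose transport and inflammasome lists ran from 0 to 1.

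Whether replicate numbers pair the libraries was not settled. Deviations of same-numbered libraries correlated at -0.21, 0.35 and 0.22. The best wild-type match was replicate 3 for knockout replicate 1, replicate 2 for knockout replicate 2 and replicate 3 for knockout replicate 3. The replicate block gave 54 higher and 101 lower genes. In CPM without length scaling the wild-type ranks were 4 for Txnip, 2 for Arrdc3, 3 for Mlxip and 5 for Mlx. Of the 10 genes most like Txnip, 0 were among the 10 highest by deviations from the genotype means. A Spearman rho of 1 was seen for 6 of the 10, and for 58 of the 13925 genes compared.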
